A study of Homo sapiens with 9 samples.

Results

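Gene expression was compared between 2 libraries of RAS-expressing human fibroblasts, one with p53 knocked down and one with BRD7 knocked down. They are 2 of the 9 libraries measured, chosen by their labels, and each is the only library of its group. The comparison covered 12481 of the 13745 genes in the deposited table, those that reached 40 or more in any of the 9 libraries. All 9 are polyA RNA-seq libraries of BJ cells, foreskin fibroblasts immortalised with hTERT, and all are labelled with 14 days of 4-OHT. Oncogenic RASG12V was activated in both knockdown libraries and in 2 senescent libraries, which carried the non-targeting hairpins 500 and 507 and are called senescent 1 and senescent 2. A control library carried hairpin 500 without RAS, and 4 libraries carried hairpins against lncRNA-OIS1, a long non-coding RNA, with RAS. The labels give the control the same 4-OHT treatment, although the design text calls it untreated. The hairpin sequences and the number of hairpins against p53 or BRD7 were not given in the sources used here.

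p53 is a transcription factor that RAS activation engages in fibroblasts. It induces the kinase inhibitor p21, its own ubiquitin ligase MDM2 and many genes of cell death, DNA repair and metabolism, and it holds the cells in senescence, a lasting arrest of proliferation. BRD7 is a bromodomain protein, a subunit of the PBAF form of the SWI/SNF chromatin remodelling complex, and is known as a cofactor through which p53 acts on part of its targets. The series title names senescence and its bypass, so the comparison asks how far loss of the cofactor and loss of p53 leave the same expression pattern.

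Each value is a normalised read count, with a floor of 20 set in the deposited table. The libraries share 1 distribution of values, so depth and counting error are unknown. Differences are given as log2 of the p53 knockdown value minus log2 of the BRD7 knockdown value, so a negative number means a lower value in the p53 knockdown. With 1 library on each side, a difference has no replicate check, and genes were counted past fixed folds without a test. As a yardstick, senescent 1 and senescent 2 differed by at least 2-fold at 29 genes (0.232%) and by at least 4-fold at 0 (0.00%). The 4 lncRNA-OIS1 knockdowns, each with its own hairpin, spread more widely: replicates 1 to 3 differed from each other by at least 2-fold at 382 to 442 genes (3.06% to 3.54%), and from replicate 4 at 1578 to 1927 (12.6% to 15.4%).

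The BRD7 transcript was low in the library labelled as its knockdown and near its senescent level in the p53 knockdown. BRD7 had 94.6 in the BRD7 knockdown and 654.0 in the p53 knockdown, against 628.7 and 536.6 in senescent 1 and 2, 605.1 in the control and 628.7 to 695.3 in the lncRNA-OIS1 knockdowns. The BRD7 knockdown was thus low and the other 8 libraries did not overlap it. A limma fit held all 9 libraries, but its spread came only from the senescent and lncRNA-OIS1 groups, with 4 residual degrees of freedom. With that spread limma called 2 genes (0.0160% of those tested), BRD7 among them, with a log2 difference of 2.79 (SE 0.17, adjusted p = 0.036). At an unadjusted p under 0.05 limma counted 794 genes. No gene was called (a count of 0) when senescent 1, senescent 2 or replicate 1, 2 or 3 of the lncRNA-OIS1 knockdown was left out, and 29 genes were called without replicate 4. That fit assumes that each lone library varies like the replicated groups. These levels are of the transcript and not of the protein.

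Between the knockdowns, 749 genes (6.00%) differed by at least 2-fold, and more of them were lower in the p53 knockdown. There were 448 lower (3.59%) and 301 higher (2.41%) in the p53 knockdown. At 4-fold there were 101 genes (0.809%), 66 lower (0.529%) and 35 higher (0.280%), and at 8-fold 17 (0.136%), 13 lower (0.104%) and 4 higher (0.0320%). The median difference over all genes tested was 0.02, and 52.3% of genes lay above 0, so the skew towards lower values came with the large differences. In 57 of the 448 genes the p53 knockdown was at the floor, and in 62 of the 301 the BRD7 knockdown was, which makes those folds lower bounds. Where 50 was added to each value before the logarithm, 331 genes passed 2-fold, 234 lower and 97 higher.

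**Figure D1:**
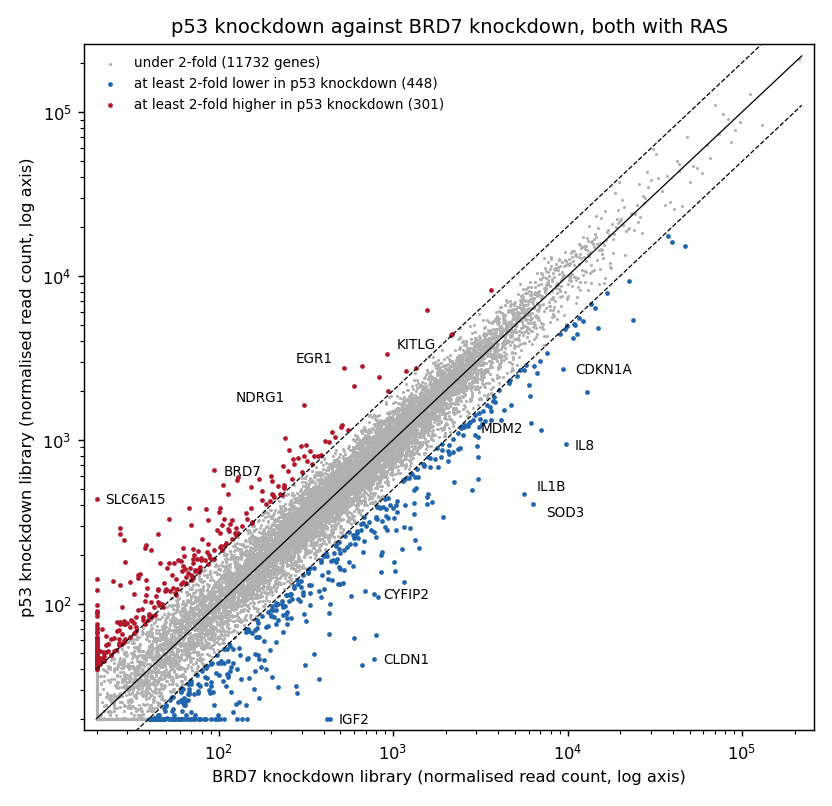
Value of each of 12481 genes in the BRD7 knockdown library (x, normalised read count, log axis) and in the p53 knockdown library (y, log axis); the solid line is equality and the dashed lines are 2-fold. Of the genes outside the dashed lines, 448 lie below and 301 above, and the points along the left and lower edges are genes at the floor of 20.

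The p53 knockdown stood away from senescence at more of these genes than the BRD7 knockdown did. A knockdown is said to depart where it lay at least 2-fold above both senescent libraries or at least 2-fold below both. Over all genes tested, the p53 knockdown departed upwards at 777 (6.23%) and downwards at 670 (5.37%), and the BRD7 knockdown at 412 (3.30%) and 221 (1.77%). Of the 448 genes lower in the p53 knockdown, it alone departed at 246 (54.9%) and the BRD7 knockdown alone at 39 (8.71%). Of the 301 higher genes, the p53 knockdown alone departed at 144 (47.8%) and the BRD7 knockdown alone at 41 (13.6%). Both departed the same way at 23 and 14 genes, in opposite ways at 3 and 4, and neither departed at 137 and 98. The senescent libraries lay above both knockdowns at 178 of the 448 genes, between them at 195 and below both at 13, with the rest split. Among the 301, they lay between the knockdowns at 166, below both at 78 and above both at 18. Both sets of distances are measured from the same 2 senescent libraries.

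Part of the p53 target genes were lower in the p53 knockdown, while the BRD7 knockdown kept most of them nearer to senescence. Of 62 listed targets tested, 17 (27.4%) were at least 2-fold lower in the p53 knockdown and 1 was higher, beside 3.59% and 2.41% of all genes. Their median difference was -0.41, beside 0.02 over all genes. At all 17 the p53 knockdown lay below both senescent libraries by at least 2-fold or, for ASCC3, by less. The BRD7 knockdown departed at none of them by the 2-fold rule, but at some it came close. Its log2 distances from senescent 1 and 2 were -0.99 and -1.25 at CDKN1A and -0.98 and -1.36 at GDF15. At CYFIP2 they were 0.04 and 0.00, and at TP53I3 0.02 and -0.04. Both knockdowns still leaned the same way: 50 of the 62 were below both senescent libraries in the p53 knockdown and 46 in the BRD7 knockdown. How many of all genes lay below or above both by any amount was not counted. The median distance from the senescent libraries was -0.76 for the p53 knockdown and -0.27 for the BRD7 knockdown, beside 0.00 and -0.02 over all genes.

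Targets that arrest the cycle or feed back on p53 held 6 lower genes of 19 tested (31.6%, beside 3.59% of all genes). At all 6 both senescent libraries were above both knockdowns. CDKN1A, the gene of the kinase inhibitor p21, had 2721.1 in the p53 knockdown and 9405.6 in the BRD7 knockdown, with 18745.7 and 22372.6 in senescent 1 and 2 and 3578.4 in the control. The BRD7 knockdown thus held 45.8% of the senescent mean and the p53 knockdown 13.2%, below the control. MDM2, the ubiquitin ligase that degrades p53, had 1214.9 and 2672.1, with 3126.9 and 3192.3 in the senescent libraries and 1095.2 in the control. GDF15, a stress-induced cytokine, had 67.3 and 234.0, with 462.0 and 601.3 in the senescent libraries. These 3 genes share an order, senescent highest, BRD7 knockdown next and p53 knockdown lowest. BTG2, an antiproliferative gene, was at the floor in the p53 knockdown and at 127.1 in the BRD7 knockdown (at least 6.36-fold lower), with 183.3 and 295.4 in the senescent libraries. WDR63, an axonemal dynein gene now named DNAI3, was likewise at the floor against 82.8 (at least 4.14-fold lower), and TP53INP1, a p53-induced stress gene, had 131.0 against 338.6. E2F7, a repressor of cell cycle genes that p53 is known to induce, did not follow them: it had 4023.4 and 2942.4, with 3224.1 and 3286.8 in the senescent libraries.

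Of 16 apoptosis targets, 3 (18.8%) were at least 2-fold lower in the p53 knockdown and 0 were higher. Over all genes the shares were 3.59% and 2.41%. FAS, a death receptor, had 284.2 in the p53 knockdown and 928.6 in the BRD7 knockdown, with 1184.4 and 1248.7 in the senescent libraries. TP53I3, an oxidoreductase gene, had 398.7 and 966.2, with 955.0 and 995.2 in the senescent libraries. TNFRSF10B, the death receptor DR5, had 1828.3 and 3811.1, with 3670.2 and 3777.9. For these last 2 genes the BRD7 knockdown was as high as the senescent libraries. PMAIP1, which encodes the BH3-only protein NOXA, had 2228.2 and 3532.4 and stayed under 2-fold (log2 -0.66). BBC3, which encodes the BH3-only protein PUMA, had 69.8 and 75.0, and BAX 1341.4 and 1635.7.

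Among 27 targets in repair, metabolism and stress, 8 were lower and 1 was higher, with a median of -0.65. CYFIP2, a regulator of the actin cytoskeleton, had 115.2 in the p53 knockdown and 778.4 in the BRD7 knockdown, with 757.8 and 777.2 in the senescent libraries and 116.8 in the control. It therefore stood at its control level in one knockdown and at its senescent level in the other. SPATA18, a mitochondrial quality control gene, had 40.2 and 187.8, with 367.8 and 321.4 in the senescent libraries. Each had its lowest RAS value in the p53 knockdown among the 4 libraries compared. ZMAT3, an RNA-binding protein gene, had 791.2 and 3063.8, with 5036.2 and 5112.7 in the senescent libraries. FDXR, ferredoxin reductase, had 133.3 and 515.4, with 626.0 and 687.7. RRM2B, the p53-inducible ribonucleotide reductase subunit, had 879.4 and 2363.6, with 4356.7 and 4162.1. Here too the BRD7 knockdown lay between the p53 knockdown and senescence. The lower genes also held TRIM22, which is in the interferon list as well, DRAM1 and ASCC3. Close to the 2-fold bound, ASCC3 lay just inside (log2 -1.03) and PHLDA3, from the arrest list, just outside (441.7 and 872.8, log2 -0.98). KITLG, the ligand of the KIT receptor, went the other way, with 3328.3 in the p53 knockdown and 926.3 in the BRD7 knockdown, against 966.2 and 1031.6 in the senescent libraries. The letters of a p53 response element were found in the promoters of 1 of the 22 members of this list with an entry. Of the 6 of these past 2-fold, 0 held the letters. They were in 0 members of the other p53 target lists, beside 0.0366% of all 27305 genes with a promoter in the reference.

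**Figure D2:**
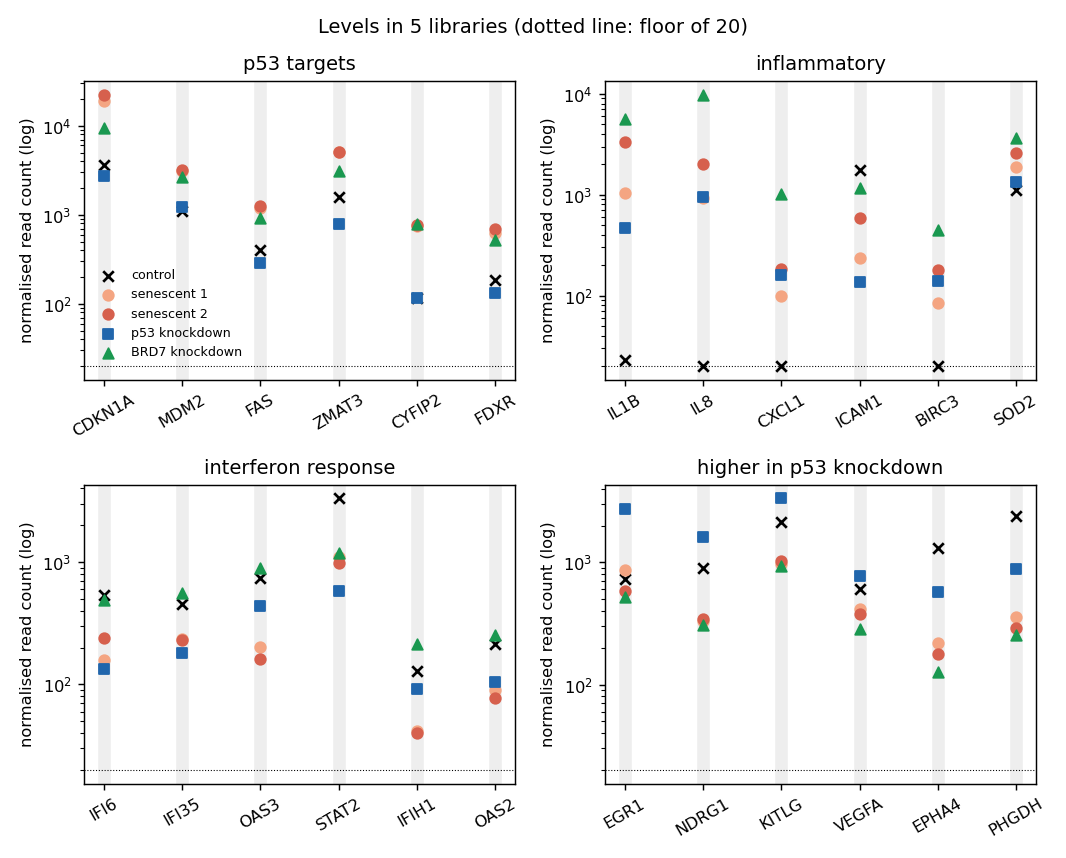
Normalised read count (y, log axis) of 6 genes from each of 4 groups in the control (cross), senescent 1 and 2 (orange and red circles), p53 knockdown (blue squares) and BRD7 knockdown (green triangles); the dotted line is the floor of 20. Among the p53 targets the triangles lie close to or between the circles and the squares, and among the inflammatory genes the triangles lie above the squares in all 6.

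Inflammatory genes of the senescence-associated secretory phenotype, the set of cytokines and enzymes that senescent cells release, were in part higher in the BRD7 knockdown. Of 25 tested, 11 (44.0%, beside 3.59% of all genes) were at least 2-fold lower in the p53 knockdown than in the BRD7 knockdown and 2 were higher, with a median of -0.74. Unlike the p53 targets, these genes were often above senescence in the BRD7 knockdown: 22 of the 25 exceeded both senescent libraries there, and 10 did so in the p53 knockdown. How many of all genes did so was not counted. The median distance from the senescent libraries was 0.95 for the BRD7 knockdown and 0.18 for the p53 knockdown, beside -0.02 and 0.00 over all genes. IL8, the neutrophil chemokine now named CXCL8, had 939.3 in the p53 knockdown and 9812.7 in the BRD7 knockdown, with 931.6 and 2021.6 in senescent 1 and 2 and the floor in the control. CXCL1, another neutrophil chemokine, had 158.4 and 1023.9, with 99.9 and 185.0 in the senescent libraries. BIRC3, an inhibitor of apoptosis induced by NF-kB, had 139.9 and 447.3, with 85.0 and 179.3. At these 3 genes the p53 knockdown lay within the range of the senescent libraries and the BRD7 knockdown above. IL1B, an interleukin upstream of this response, had 465.8 and 5606.9, with 1035.0 and 3344.9, so the p53 knockdown was below both senescent libraries. ICAM1, an adhesion molecule, had 136.1 and 1158.0, with 234.0 and 586.3, the same order. Low values limit what can be said of IL6, an interleukin of the same response. IL6 was at the floor in the p53 knockdown, both senescent libraries and the control, and at 60.6 in the BRD7 knockdown (at least 3.03-fold higher). NFKBIA, the inhibitor of NF-kB that NF-kB itself induces, had 622.8 and 1278.7, with 484.6 and 821.2, and SOD2, mitochondrial superoxide dismutase, 1329.4 and 3663.3, with 1879.4 and 2596.7. The 2 members with the opposite direction were PTGS2 and TNFAIP6. PTGS2, the cyclooxygenase COX-2, was higher in the p53 knockdown, with 8201.7 against 3660.1 and 1938.7 and 1848.6 in the senescent libraries. TNFAIP6, a hyaluronan-binding protein gene, was also higher there, with 120.9 against 45.2 and the floor in both senescent libraries.

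Several of the inflammatory genes also differed between the senescent libraries. Of the 29 genes that differed by at least 2-fold between senescent 1 and senescent 2, 5 are members of this list, BIRC3, ICAM1, IL1A, IL1B and IL8, all higher in senescent 2. Over the lncRNA-OIS1 knockdowns IL1B ran from 60.1 to 18474.2 and IL8 from 212.0 to 17615.8, so both knockdown values lie inside that range. With 50 added to each value, 7 of the 25 stayed at least 2-fold lower.

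The promoters of 3 lower members are shown because they hold the letters of an NF-kB site. They are 250 bases before the start of the gene from RefSeq (GRCh38.p14), written 5′ to 3′ on the gene's strand. The CXCL1 window is chr4:73869143-73869392 on the plus strand, that of BIRC3 chr11:102317234-102317483 on the plus strand and that of IL6 chr7:22726950-22727199 on the plus strand. Capitals mark GGG, any 2 bases and TTTCC, read on either strand.
CXCL1 promoter: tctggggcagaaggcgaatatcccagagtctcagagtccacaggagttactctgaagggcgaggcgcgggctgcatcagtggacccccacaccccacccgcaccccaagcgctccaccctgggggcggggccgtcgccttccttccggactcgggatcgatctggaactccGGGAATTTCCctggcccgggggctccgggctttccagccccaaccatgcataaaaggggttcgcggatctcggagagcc
BIRC3 promoter: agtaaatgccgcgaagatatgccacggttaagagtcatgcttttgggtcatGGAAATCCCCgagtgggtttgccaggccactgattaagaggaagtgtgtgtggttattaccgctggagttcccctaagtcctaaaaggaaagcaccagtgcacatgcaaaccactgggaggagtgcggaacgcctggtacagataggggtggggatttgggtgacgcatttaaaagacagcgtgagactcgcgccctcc
IL6 promoter: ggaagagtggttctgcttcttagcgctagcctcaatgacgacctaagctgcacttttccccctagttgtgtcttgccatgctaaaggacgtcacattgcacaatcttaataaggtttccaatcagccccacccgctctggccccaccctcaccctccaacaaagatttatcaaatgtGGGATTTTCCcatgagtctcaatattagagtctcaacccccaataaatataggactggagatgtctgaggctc
The letters lie 79, 199 and 73 bases before the start in CXCL1, BIRC3 and IL6. They were found in 8 of 19 list members with a promoter entry (42.1%) and in 6 of the 13 of these past 2-fold, beside 2.33% of all 27305 genes, in windows from 250 bases before to 50 after the start.

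Interferon response genes showed the same direction across nearly the whole list. Of 42 tested, 15 (35.7%, beside 3.59% of all genes) were at least 2-fold lower in the p53 knockdown than in the BRD7 knockdown, 0 were at least 2-fold higher, and 40 lay below 0, with a median of -0.70. The BRD7 knockdown was above both senescent libraries at 41 of the 42 and by at least 2-fold at 21, the p53 knockdown at 23 and 7. Over all genes, the shares at least 2-fold above both were 3.30% for the BRD7 knockdown and 6.23% for the p53 knockdown. The shares above both by any amount were not counted. The median distance from the senescent libraries was 1.05 for the BRD7 knockdown and 0.14 for the p53 knockdown, beside -0.02 and 0.00 over all genes. IFI6, an interferon-induced mitochondrial protein gene, had 133.1 in the p53 knockdown and 484.8 in the BRD7 knockdown, with 156.9 and 237.8 in the senescent libraries and 533.9 in the control. IFI35 had 179.4 and 558.2, with 233.9 and 229.0 and a control of 455.1. OAS2, an antiviral synthetase, had 104.7 and 252.7, with 89.9 and 77.6 and a control of 213.6. In these 3 genes the BRD7 knockdown was near the control and the p53 knockdown near senescence. OAS3, of the same enzyme family, had 439.3 and 896.2, with 200.4 and 161.1 in the senescent libraries. IFIH1, the RNA sensor MDA5, had 91.6 and 213.0, with 41.8 and 39.7. STAT2, a subunit of the factor that carries the type I interferon signal, had 578.9 and 1172.9, with 1101.9 and 979.1. Several members were at or close to the floor: RSAD2, an antiviral enzyme, was at 20 in the p53 knockdown, both senescent libraries and the control and at 76.0 in the BRD7 knockdown (at least 3.80-fold higher). BST2, MX1 and MX2 were at 20 to 20.1 in the p53 knockdown and at 59.4, 42.6 and 53.3 in the BRD7 knockdown. With 50 added to each value, 3 of the 42 remained past 2-fold.

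The promoters of 3 of these genes are shown for the letters of an interferon-stimulated response element. The IFI6 window is chr1:27672193-27672442 on the minus strand, that of BST2 chr19:17405631-17405880 on the minus strand and that of EPSTI1, an interferon-induced gene with 63.1 in the p53 and 170.0 in the BRD7 knockdown, chr13:42992242-42992491 on the minus strand, all 250 bases before the start from RefSeq (GRCh38.p14). Capitals mark TTTC, any 2 bases and TTTC, read on either strand, and in BST2 2 matches overlap.
IFI6 promoter: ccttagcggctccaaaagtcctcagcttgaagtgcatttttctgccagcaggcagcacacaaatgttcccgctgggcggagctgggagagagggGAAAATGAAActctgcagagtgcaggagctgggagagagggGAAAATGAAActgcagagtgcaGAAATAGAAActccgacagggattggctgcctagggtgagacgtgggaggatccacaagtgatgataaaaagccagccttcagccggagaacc
BST2 promoter: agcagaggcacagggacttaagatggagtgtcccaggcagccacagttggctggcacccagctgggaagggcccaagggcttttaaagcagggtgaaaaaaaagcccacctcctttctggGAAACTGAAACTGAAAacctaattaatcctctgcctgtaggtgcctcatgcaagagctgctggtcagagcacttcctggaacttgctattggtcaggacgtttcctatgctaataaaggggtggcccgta
EPSTI1 promoter: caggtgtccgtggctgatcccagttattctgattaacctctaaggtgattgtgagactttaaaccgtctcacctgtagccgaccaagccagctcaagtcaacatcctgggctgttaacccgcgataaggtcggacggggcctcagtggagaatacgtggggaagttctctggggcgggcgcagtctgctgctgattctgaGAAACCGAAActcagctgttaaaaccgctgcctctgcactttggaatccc
IFI6 holds 3 matches, BST2 2 and EPSTI1 1. The letters were found in 21 of 32 members with an entry (65.6%) and in 7 of the 11 past 2-fold, beside 4.38% of all genes with a promoter.

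Cell cycle genes were above senescence in both knockdowns and higher in the p53 knockdown, with small differences between them. Of 50 mitosis genes, 0 were at least 2-fold apart between the knockdowns, beside 6.00% of all genes. All 50 lay above 0, beside 52.3% of all genes, and ran from 0.16 to 0.95 with a median of 0.57. All 50 exceeded both senescent libraries in each knockdown, by at least 2-fold at 49 in the p53 knockdown and 47 in the BRD7 knockdown. Over all genes those 2-fold shares were 6.23% and 3.30%, and the shares by any amount were not counted. The summed level of the list was 118900 in the p53 knockdown, 81640 in the BRD7 knockdown, 30360 and 24640 in senescent 1 and 2 and 55440 in the control. MKI67, the proliferation marker Ki-67, had 6931.1 and 5027.6, with 1231.3 and 972.4 in the senescent libraries and 3913.6 in the control. CCNA2, cyclin A2, had 2006.6 and 1224.3, with 382.8 and 316.8. CDC20, an activator of the anaphase-promoting complex, had 3214.2 and 1703.1, with 624.4 and 461.9. Each gene kept the order p53 knockdown, BRD7 knockdown, senescence, so both knockdowns were on the proliferating side. In bulk RNA, fewer cycling cells and less RNA per cell cannot be told apart.

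Of 55 genes of DNA replication and E2F targets, 1 was at least 2-fold higher in the p53 knockdown and 0 were lower. Over all genes 2.41% were higher and 3.59% lower. Of the 55, 50 lay above 0, with a median of 0.47. BRCA2, a homologous recombination gene, had 801.8 and 369.7, with 174.9 and 131.2 in the senescent libraries. PCNA, the sliding clamp of replication, had 1725.7 and 1841.0, and MCM6, a subunit of the replicative helicase, 702.0 and 720.6, so these did not share the order. The p53 knockdown exceeded both senescent libraries by at least 2-fold at 46 of the 55 and the BRD7 knockdown at 30. Over all genes the shares were 6.23% and 3.30%. Outside these lists LMNB1, lamin B1, whose loss marks senescence, had 1015.8 and 682.3, with 224.3 and 174.9 in the senescent libraries and 1083.3 in the control. CDKN2A, the locus of p16 and ARF, was at the floor in both knockdowns, both senescent libraries and the control. It passed the filter only through replicate 4 of the lncRNA-OIS1 knockdown, at 362.3. CDKN2B, the inhibitor p15, had 166.2 and 231.4, with 250.1 and 304.0.

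The promoters of CDC20, CENPA, a centromeric histone gene with 325.3 in the p53 and 179.1 in the BRD7 knockdown, and PLK1, a mitotic kinase gene with 1856.6 and 1056.9, are shown for the cell cycle homology region, an element of genes expressed late in the cycle. The CDC20 window is chr1:43358731-43358980 on the plus strand, that of CENPA chr2:26785806-26786055 on the plus strand and that of PLK1 chr16:23678639-23678888 on the plus strand, from RefSeq (GRCh38.p14). Capitals mark TTTGAA on either strand.
CDC20 promoter: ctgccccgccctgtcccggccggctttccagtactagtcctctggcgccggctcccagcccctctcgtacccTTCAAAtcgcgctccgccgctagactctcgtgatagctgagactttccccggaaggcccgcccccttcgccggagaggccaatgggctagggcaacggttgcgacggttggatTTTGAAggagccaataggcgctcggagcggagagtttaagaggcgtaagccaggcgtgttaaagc
CENPA promoter: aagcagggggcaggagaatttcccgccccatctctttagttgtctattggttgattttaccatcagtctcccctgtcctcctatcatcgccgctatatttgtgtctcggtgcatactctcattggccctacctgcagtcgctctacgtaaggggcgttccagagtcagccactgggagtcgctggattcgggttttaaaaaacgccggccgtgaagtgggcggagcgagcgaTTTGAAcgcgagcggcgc
PLK1 promoter: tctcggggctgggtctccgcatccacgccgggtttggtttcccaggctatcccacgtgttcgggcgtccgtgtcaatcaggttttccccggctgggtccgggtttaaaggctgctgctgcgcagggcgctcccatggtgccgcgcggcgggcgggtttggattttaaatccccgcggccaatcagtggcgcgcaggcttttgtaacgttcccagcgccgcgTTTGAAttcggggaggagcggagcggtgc
The letters were in 29 of 41 mitosis genes with an entry (70.7%), beside 18.2% of all genes with a promoter. A match of letters is a description of the sequence and not a measured site.

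Lists of genes known to respond to RAS-MAPK signalling and to low oxygen held members that were higher in the p53 knockdown. Of 31 RAS-MAPK genes, 5 (16.1%) were at least 2-fold higher and 0 were lower, beside 2.41% and 3.59% of all genes, with a median of 0.30. EGR1, an immediate early transcription factor, had 2743.8 in the p53 knockdown and 523.2 in the BRD7 knockdown, with 866.1 and 577.1 in the senescent libraries. EPHA4, an ephrin receptor, had 573.0 and 127.0, with 218.6 and 178.4. The control without RAS had 723.7 for EGR1 and 1314.7 for EPHA4. In senescence EPHA4 was thus below the control, and for EGR1 the senescent libraries lay on both sides of it. Replicate 4 of the lncRNA-OIS1 knockdown had 4297.6 for EGR1 and 1557.9 for EPHA4. FOS, FOSB and EGR3, also immediate early genes, lay between 20 and 93.4 in both knockdowns. The feedback inhibitors of the pathway did not share this, with DUSP6 at 4219.4 and 5840.3 and SPRY4 at 6335.7 and 6019.1. HRAS, a member of the list, was under 2-fold apart (log2 0.69): it had 23342.7 in the p53 knockdown, 14498.6 in the BRD7 knockdown, 12051.4 and 11321.3 in the senescent libraries and 26556.6 in the control, and its part in the values of the other members was not tested.

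Of 23 genes of glycolysis and the hypoxia response, 4 (17.4%) were higher and 1 (4.35%) was lower, beside the same 2.41% and 3.59%, with a median of 0.54. NDRG1, a hypoxia-inducible gene, had 1624.7 in the p53 knockdown and 308.9 in the BRD7 knockdown, with 329.9 and 341.7 in the senescent libraries. ENO2, the neuronal form of enolase, had 859.7 and 332.6, and BNIP3, a mitophagy receptor, 1113.8 and 444.4. PDK1, which keeps pyruvate out of the mitochondrion, had 975.7 and 427.0, with 990.1 and 946.3, so here the BRD7 knockdown was the one away from senescence. The list was not uniform, since a vasoactive peptide went the other way. ADM, adrenomedullin, was lower in the p53 knockdown with 1288.4 against 2760.1.

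Some matrix and contractile genes of the fibroblast were lower in the p53 knockdown than in the BRD7 knockdown. Of 38 matrix genes, 10 (26.3%, beside 3.59% of all genes) were at least 2-fold lower and 3 were higher, with a median of -0.57. Against senescence the median was -0.05 for the p53 knockdown, with 17 genes below both senescent libraries and 13 above both. For the BRD7 knockdown it was 0.36, with 8 below and 24 above. Over all genes these medians were 0.00 and -0.02. How many of all genes lay below or above both by any amount was not counted. SPARC, a collagen-binding protein gene, had 15227.7 in the p53 knockdown and 46989.9 in the BRD7 knockdown, with 42225.9 and 37176.7 in the senescent libraries. LOXL2, a collagen cross-linking enzyme, had 4819.1 and 14952.6, with 12985.6 and 12293.2. LOXL4, of the same family, had 45.2 and 182.6, with 329.0 and 307.7. In all 3 the p53 knockdown was the lowest of the 4 RAS libraries compared. COL1A2, a chain of type I collagen, had 16210.4 and 39745.4, with 25693.4 and 22177.2 and 129460.3 in the control. The summed level of the list was 239200 in the p53 knockdown, 385600 in the BRD7 knockdown, 271600 and 249600 in the senescent libraries and 906800 in the control, so these 4 RAS libraries all stayed below the control. HAS2, a hyaluronan synthase, was higher in the p53 knockdown, with 924.8 against 296.6, and VCAN, a proteoglycan that binds hyaluronan, had 142.3 and was at the floor in the BRD7 knockdown and both senescent libraries (at least 7.11-fold higher). Of 17 contractile and TGF-beta response genes 5 (29.4%) were lower and 0 were higher. ACTA2, smooth muscle actin, had 86.4 and 308.1, with 273.6 and 280.3, and TAGLN, transgelin, 597.4 and 1388.2, with 1633.9 and 1660.4.

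Secreted proteases, inhibitors and growth factors split. Of 38 tested, 6 (15.8%) were lower in the p53 knockdown and 2 (5.26%) were higher, beside 3.59% and 2.41% of all genes, with a median of -0.30. PLAT, tissue plasminogen activator, had 5388.7 and 23723.1, with 40950.0 and 43305.0 in the senescent libraries. IGFBP3, an insulin-like growth factor binding protein, had 218.0 and 1416.7, with 505.4 and 434.3, so the BRD7 knockdown was the one above senescence. IGFBP5 had 574.3 and 3051.2, with 2637.8 and 2205.7, and there the p53 knockdown was below. The binding proteins thus had no common pattern. The 2 higher members were IGFBP2 and VEGFA. IGFBP2 had 577.4 and 171.3, with 774.1 and 909.4, and VEGFA, an angiogenic growth factor, 773.2 and 284.6, with 418.3 and 379.7. MMP1, an interstitial collagenase, had 59295.6 and 30796.4, with 45321.7 and 50370.2, and stayed under 2-fold (log2 0.95).

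Of 34 lysosomal genes, 5 (14.7%, beside 3.59% of all genes) were at least 2-fold lower in the p53 knockdown, 0 were higher, and 29 lay below 0 with a median of -0.51. FUCA1, a fucosidase, had 87.9 and 428.8, with 585.0 and 623.2 in the senescent libraries. GLB1, the source of senescence-associated beta-galactosidase, had 848.9 and 906.2, with 1172.6 and 1281.2. Of 28 genes of the unfolded protein response and ATF4, 3 (10.7%) were lower and 2 (7.14%) higher, beside 3.59% and 2.41% of all genes. SLC7A11, the cystine transporter, had 1855.6 and 6094.0, with 6464.4 and 6008.7 in the senescent libraries. The BRD7 knockdown was at the senescent level there. PHGDH, the first enzyme of serine synthesis, had 874.0 and 251.9, with 357.1 and 292.0. Cholesterol genes had 0 of 23 past 2-fold in either direction, beside 6.00% of all genes, with a median of 0.26.

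Apart from BRD7 itself, no subunit of SWI/SNF differed by 2-fold between the knockdowns, beside 6.00% of all genes. At that share few members of a list this short would pass, so the absence says little about the complex. Of 27 tested, the other 26 ran from -0.67 (DPF3) to 0.55 (ACTL6A). ARID2, the PBAF subunit that binds alongside BRD7, had 483.1 in the p53 knockdown and 632.6 in the BRD7 knockdown, with 308.2 and 297.9 in the senescent libraries. PBRM1, another PBAF subunit, had 1577.3 and 1485.7, with 1050.9 and 1042.9. SMARCA4, an ATPase of the complex, had 2093.7 and 1953.0, with 1906.3 and 1870.2.

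Named after their size alone, the largest differences included genes of no common list. Among those lower in the p53 knockdown, SOD3, extracellular superoxide dismutase, had 407.1 against 6369.8 in the BRD7 knockdown, with 5581.8 and 6119.4 in the senescent libraries. CLDN1, a tight junction gene, had 46.2 against 778.1, with 550.3 and 1038.3. PRSS35 had 64.2 against 803.6, with 441.7 and 414.9. In these 3 the BRD7 knockdown was near or above the senescent libraries and the p53 knockdown below them. Low values were not particular to the p53 knockdown: replicate 4 of the lncRNA-OIS1 knockdown had 531.3 for SOD3, 97.7 for CLDN1 and 23.1 for PRSS35, and the control 991.3, 20 and 27.0. At FAM65C (now RIPOR3), ADAMTS5, an aggrecanase, and KCTD4 both knockdowns lay below the senescent libraries. The p53 knockdown had 34.7, 28.6 and 31.6 and the BRD7 knockdown 376.9, 280.4 and 277.0, with senescent means of 530.0, 479.8 and 415.1. Replicate 4 of the lncRNA-OIS1 knockdown was low at these genes too, with 48.3, 56.6 and 30.3. The control was at the floor for FAM65C and KCTD4 and at 932.6 for ADAMTS5. C3, the central complement component, differed: it was at the floor in the p53 knockdown, at 20 and 51.6 in the senescent libraries and at 416.3 in the BRD7 knockdown (at least 20.8-fold higher). BDKRB2, the bradykinin B2 receptor, had 62.1 against 595.3, with 215.8 and 356.9.

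Among the genes higher in the p53 knockdown, several had their low value in the BRD7 knockdown. COL4A5, a chain of type IV collagen, had 268.7 in the p53 knockdown and 27.3 in the BRD7 knockdown, with 342.0 and 360.9 in the senescent libraries. DCSTAMP, a gene of cell fusion in osteoclasts, had 245.8 and 28.9, with 127.1 and 140.0, and AK4, a mitochondrial adenylate kinase, 328.9 and 51.7, with 230.9 and 236.8. AK4 was also low over the lncRNA-OIS1 knockdowns, from 29.6 to 113.9. COL4A5 and DCSTAMP had at least 165.1 and 45.8 in those knockdowns and were at the floor in the control. TIE1, NREP, STAC and G0S2 lay above both senescent libraries in the p53 knockdown instead, at 266.9, 228.2, 219.0 and 382.1. The BRD7 knockdown had 44.9, 38.6, 37.7 and 67.6, and the senescent libraries 33.2 to 134.0. NREP and STAC were higher still in the control, at 1046.6 and 749.0, while TIE1 had 22.2 there and G0S2 was at the floor. Replicate 4 of the lncRNA-OIS1 knockdown had 50.8 for TIE1, 254.2 for NREP and 156.2 for STAC, with G0S2 at the floor.

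Fibroblast markers were present in both knockdowns. Of 20 mesenchymal markers tested, 1 was lower and 1 higher in the p53 knockdown, beside 3.59% and 2.41% of all genes, with a median of -0.06. Their summed levels were 218600 in the p53 knockdown, 193500 in the BRD7 knockdown, 175500 and 167900 in the senescent libraries and 114100 in the control. The lower one was DPP4, a surface peptidase (361.4 and 1053.6, with 1998.8 and 2050.9), and the higher one FAP, fibroblast activation protein (187.8 and 71.8, with 32.9 and 55.3). Of the 10 endothelial markers listed, TIE1 alone was in the table. The 2 leukocyte markers tested were PTPRC, at the floor in both knockdowns, and CD14, with 41.3 and 117.7. The 4 epithelial markers tested had summed levels of 1550 and 1779, nearly all from KRT8 and KRT18, and the 4 neural ones 9322 and 5617, nearly all from NES, which fibroblasts in culture also express.

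Replicate 2 of the lncRNA-OIS1 knockdown came closest to both libraries. It differed by at least 2-fold from the p53 knockdown at 377 genes (3.02%) and from the BRD7 knockdown at 221 (1.77%), fewer than the 749 between the knockdowns. From the BRD7 knockdown the other 3 hairpins differed at 384 to 1708 genes and from the p53 knockdown at 1176 to 1419. The senescent libraries differed from the BRD7 knockdown at 771 and 906 genes and from the p53 knockdown at 1639 and 1820. By this count the BRD7 knockdown was the nearer of the 2 to senescence, and it was also the nearer to the control, with 2006 genes against 2582.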

How the data were processed

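The deposited table holds 1 signal per gene and library: per its name and values, read counts that the authors had quantile normalised and floored at 20. TopHat2, HTSeq and hg19 come per the submitters' processing notes; their roles and versions were not given in the sources used here. Whether counting used strand is not given either, so overlapping and antisense genes are uncertain. Values were used as deposited, with no pseudocount, for 12481 genes with a highest value of at least 40. Folds of 2, 4 and 8 were counted between the 2 libraries without a test. limma 3.58.1 in R 4.3.3 was fitted to log2 values of all 9 libraries in 5 groups, two-sided, with a trend and Benjamini-Hochberg adjustment over all genes, called at an adjusted p under 0.05. The spread came from the senescent and lncRNA-OIS1 groups alone. Since nothing says that replicates came from separate cultures, its p-values measure only the spread between the libraries of those groups. On simulated data for this contrast with 200 of 12481 genes changed, it recovered 0.00% of 2-fold, 75.5% of 4-fold and 91.0% of 8-fold changes. The changed genes were drawn at random from those averaging above 200 on the log2 scale. Noise was normal with each gene's fitted spread, and no floor was set. In the real fit the SE was 0.17 at BRD7, 1.61 at SOD3 and 3.99 at IL1B, so no single rate holds for all genes. Named genes were 25 fixed ones, the 12 largest differences in each direction with at least 200 in the higher library, and the 2 largest past 2-fold per list and direction. Other genes were named after their values were seen, and 2 genes of the fits are not reported here. The members, the 22 lists and the rules were chosen with earlier results of these data known, and the interferon-stimulated response element was added after seeing them. Lists are described by counts and medians, with no set test. Promoters came from RefSeq by symbol, for 9823 genes tested. The p53 response element was 2 copies of its motif of 10 letters with up to 13 between. Symbols were missing or turned into dates for 1051 genes, of which 849 were filled from a gene name table. Sequence positions are on GRCh38.p14, while the table was made on hg19.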

Additional observations from a re-analysis of the deposited data

Results flagged for a closer look

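At 7 genes both knockdowns lay at least 2-fold from both senescent libraries, on opposite sides. Each side is 1 library, and the difference was not tested. IGF2, an insulin-like growth factor, was at the floor in the p53 knockdown and at 435.0 in the BRD7 knockdown, with 169.4 and 128.7 in senescent 1 and 2 (log2 -4.44, a bound set by the floor). EFEMP1, a matrix glycoprotein gene, had 49.6 and 354.0, with 136.9 and 164.8 (log2 -2.84). PLPPR4 had 119.1 and 686.7, with 286.8 and 327.3 (log2 -2.53). These 3 were lower in the p53 knockdown, and the other 4 were higher. CRABP2, a retinoic acid binding protein gene, had 379.8 and 84.8, with 170.6 and 181.6 (log2 2.16). FHL3, a LIM domain gene, had 98.1 and was at the floor in the BRD7 knockdown, with 46.0 and 44.8 (log2 2.29). ADAMTSL1 had 290.2 and 27.3, with 64.2 and 57.8 (log2 3.41). SLC6A15, an amino acid transporter gene, had 439.1 and was at the floor in the BRD7 knockdown, with 50.6 and 61.7 (log2 4.46), and reached 3567.6 in 1 of the lncRNA-OIS1 knockdowns.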

How the results depend on the processing

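The 749 genes past 2-fold (301 higher and 448 lower in the p53 knockdown) became 331 (97 and 234) with a pseudocount of 50, 2189 (988 and 1201) at 1.5-fold and 101 (35 and 66) at 4-fold. With both knockdown values at least 80, a filter chosen after seeing the data, there were 349 (97 and 252), and with a mean of at least 80 the higher genes numbered 162. The share that was lower went from 59.8% to 70.7% with the pseudocount of 50, 72.2% with both values at least 80 and 68.4% with the mean filter. With a pseudocount of 50 the p53 knockdown alone departed at 183 genes (390 as reported), the BRD7 knockdown alone at 24 (80), both the same way at 8 (37), opposite ways at 1 (7) and neither at 115 (235). Using 1 senescent library at a time gave 43 to 57 genes departing the same way and 11 to 12 in opposite ways. limma called 1 gene with a pseudocount of 50, 69 without a filter and 0 to 29 leaving out 1 library, against 2 as reported. Under a pseudocount of 50, 7 inflammatory and 3 interferon genes stayed 2-fold lower. The causes were not tested, apart from the fewer genes or weaker folds these settings allow by construction. Of the 63 named genes past 2-fold, 62 and 55 stayed past 2-fold under pseudocounts of 10 and 50, and 63 under median-of-ratios scaling. Their direction could not change under these settings. A pseudocount adds the same number to both values, and the scaling factors were 1.015 for the p53 knockdown and 1.006 for the BRD7 knockdown. No paired analysis was possible because the p53 and BRD7 knockdowns have 1 library each. Depth is unknown, and low values are limited by the floor.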
